A study of Rattus norvegicus with 6 samples.

Results

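The genes described here are 10 genes of secretagogue and calcium signalling in the rat pancreas, chosen by name: Cckar and Chrm3, the receptors for cholecystokinin (CCK) and acetylcholine; Itpr1, Itpr2 and Itpr3, the calcium release channels; Stim1, Orai1 and Piezo1, which serve calcium entry; and Atp2a2 and Atp2b1, the calcium pumps. They were found through the RefSeq accession of each probe, which gave 12 of 24684 probes on the array, 3 of them for Atp2a2 and 1 for each other gene. Of the 10 genes, 8 were bright enough to be tested, among 8728 named genes tested in all. RNA of pancreas from male rats aged 6 weeks was hybridised to 1-colour arrays, and 6 scans were deposited. In the acute pancreatitis (AP) group, scans AP 1 to 3, the disease was induced by injecting 4% sodium taurocholate, a bile salt, backwards into the pancreatic duct at 1 mL/kg, and the rats were killed after 9 h. The control group, scans control 1 to 3, came from rats of the same sex and age; the labels name no sham injection and no strain. Control 2 and control 3 proved to be a single array scanned again, as did AP 2 and AP 3. Spot deviations from the mean of their probe correlated across 1118 spots with r = 0.993 and 0.994 in these pairs (0.22 to 0.75 in the other 13 pairs), and the file headers placed both scans of a pair in the same slot. The comparison therefore had n = 2 arrays per group, and p-values measure the spread between these arrays.

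Acinar cells, the enzyme-secreting cells of the gland, release zymogen granules when CCK or acetylcholine binds a receptor coupled to the G protein Gq. Phospholipase C then makes inositol trisphosphate (IP3), which opens IP3 receptors in the endoplasmic reticulum (ER), and the released calcium drives exocytosis at the apical pole. STIM1 senses the emptied store and opens ORAI1 in the plasma membrane, while the SERCA pump returns calcium to the ER and the plasma membrane calcium ATPase (PMCA) expels it. Bile acids and overstimulation are known to turn these short signals into sustained ones in experimental pancreatitis.

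Each level below is a log2 signal set to 0 at its scan's 75th percentile, and differences, rises and falls are AP minus control on the log2 scale, with the SE of the limma fit. Called means an adjusted p below 0.05 over 13213 probes (limma, Benjamini-Hochberg). Of all genes tested, 24.1% were called higher and 31.9% lower. These shares stand beside every count of a gene list below, and no test over a list was run. Scaling mattered: the 75th percentile of the signal was 140 to 147 for control and 70.1 to 77.7 for AP, and without scaling the median difference over all genes tested was -0.99 in place of -0.03. Acute inflammation genes were lower on the arrays labelled AP. Ccl2, a monocyte chemokine, averaged 6.16 ± 0.0013 (SD, n = 2) in control and 0.31 ± 0.029 in AP, and Il1b, interleukin 1 beta, 4.84 ± 0.042 and 0.86 ± 0.13. Directions follow the deposited labels, which were not checked in any other way, and "AP arrays" are the arrays so labelled. Were the labels exchanged, every rise and fall below would turn. Overlap of the groups, or its absence, is a description only, and 2 scans of 1 array are not separate replicates. An exact two-sided permutation test of 2 arrays against 2 cannot give a p below 0.333. The share of all genes without overlap was not counted.

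The muscarinic receptor gene Chrm3 was lower on the AP arrays. Control scans 1 to 3 read -0.53, -0.41 and -0.40, while AP scans 1 to 3 read -2.05, -1.41 and -1.62. All AP scans lay below all control scans, and the probe was well above background on 3 of 3 control scans but 1 of 3 AP scans. The difference was -1.31 ± 0.22 (2.49-fold lower, n = 2 per group, limma adjusted p = 0.0135). It lost its call when control array 1 or 2 was left out (adjusted p = 0.0631 and 0.0791) and under normexp background correction (-0.13, adjusted p = 0.720).

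Cckar, the receptor through which CCK acts on rat acinar cells, was not measured well enough to be compared. Control scans read -2.65, -5.45 and -5.33, against -4.23, -3.60 and -3.27 in AP scans. The scan of control 1 alone was well above background, and the control arrays lay on both sides of the AP arrays. No fold is given, and without a filter on dim probes the fit gave 0.19 ± 1.12 (adjusted p = 0.922).

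**Figure D1:**
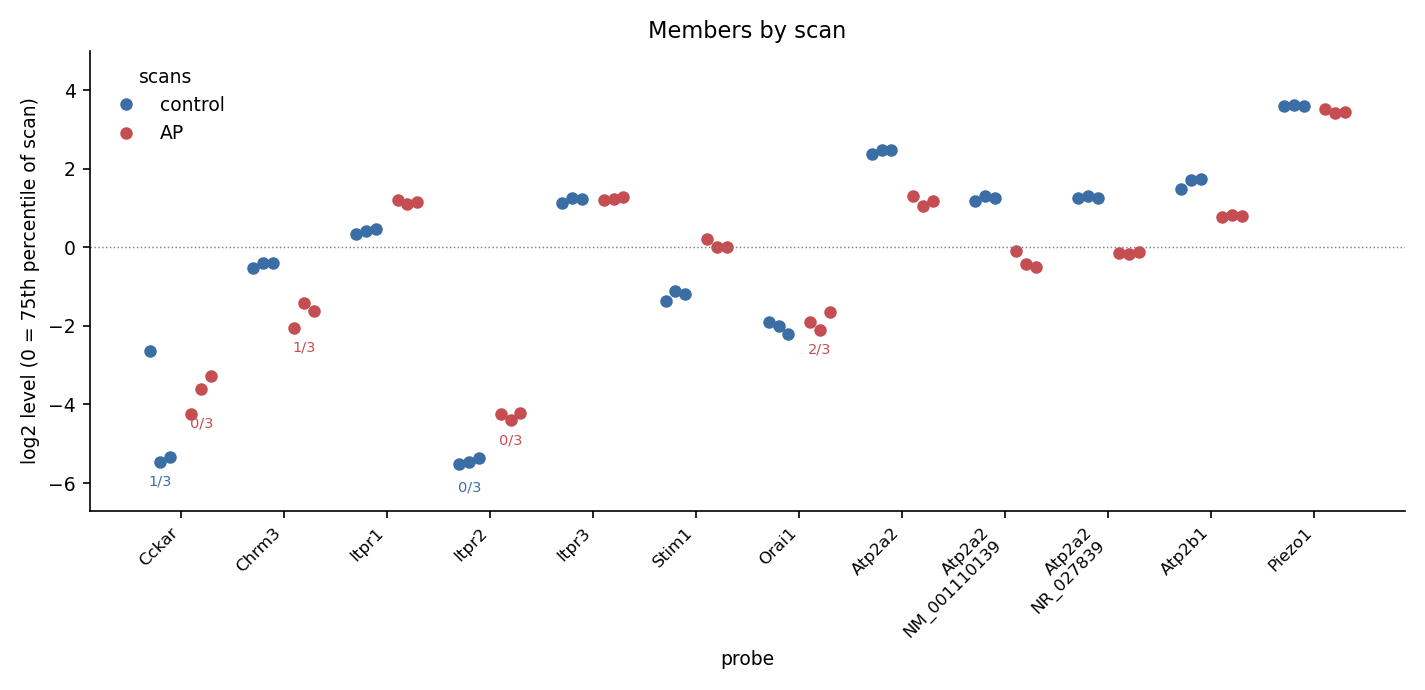
Log2 level of each of the 12 member probes (x axis) in each scan, with 0 at the 75th percentile; blue points are control 1, 2 and 3 and red points AP 1, 2 and 3, from left to right. A mark such as 1/3 counts the scans of a group well above background where that was not all 3; Cckar and Itpr2 lie at background on most or all scans, and the 3 Atp2a2 probes all drop.

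Other receptors of the gland, a list of 9 genes with 8 on the array and 4 tested, included 3 called higher and 0 called lower (median difference 0.65, against -0.03 over all genes tested). Of all genes tested 24.1% were higher, and 4 genes are too few to set the list apart from that share. Without scaling 0 of the 4 were higher and 2 were lower, beside 5.30% and 62.5% of all genes. F2rl1, the protease-activated receptor that trypsin cleaves, rose by 0.79 ± 0.13 (adjusted p = 0.0139). Cckbr, the CCK and gastrin receptor, rose by 0.80 ± 0.21 (adjusted p = 0.0427), and Sctr, the secretin receptor of duct cells, rose by 0.51 ± 0.11 (adjusted p = 0.0275). F2rl1 kept its direction and call in 14 of 19 other settings, and not without control array 1 or 2 or AP array 2 (adjusted p = 0.0529 to 0.0662), without scaling (-0.16, adjusted p = 0.289) or under normexp (0.44, adjusted p = 0.265). Cckbr kept its direction and call in 12 of 19 other settings, and not without control array 2 or AP array 1 or 2 (adjusted p = 0.0665 to 0.140), without scaling (-0.16, adjusted p = 0.583), under normexp (0.39, adjusted p = 0.278), with no filter on dim probes (adjusted p = 0.0745) or under the replicate block (adjusted p = 0.0666). Sctr kept its direction and call in 11 of 19 other settings, and not without control array 1 or 2 or AP array 1 or 2 (adjusted p = 0.0634 to 0.114), without scaling (-0.45, adjusted p = 0.0353), under normexp (0.29, adjusted p = 0.406), with no filter on dim probes (adjusted p = 0.0523) or under the replicate block (adjusted p = 0.0852). Gpbar1, a bile acid receptor, had -0.39 ± 0.21, adjusted p = 0.2005. Of 14 G protein, phospholipase C, protein kinase C and RGS genes, 8 were tested, 3 of them lower and 1 higher (median -0.46). Plcb4, a phospholipase C of the Gq branch, fell by 1.32 (SE 0.12, adjusted p = 0.00326). Plcb4 kept its direction and call in 18 of 19 other settings, and not under normexp (-0.49, adjusted p = 0.180). The other 2 called lower, Plcb1, a relative of Plcb4, and Rgs4, which shortens Gq signals, were at background on all 3 AP scans and entered the test through the control scans alone. Against the lowest level above background Rgs4 was at least 1.32-fold lower, and Plcb1 allowed no bound. With the 4 genes at background in 1 group set to their bounds, the median of the list was 0. Plcg1, the phospholipase C that tyrosine kinases activate, rose by 1.15 ± 0.12 (adjusted p = 0.00499). Plcg1 kept its direction and call in 17 of 19 other settings, and not without scaling (0.20, adjusted p = 0.263) or under normexp (0.67, adjusted p = 0.0666).

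The IP3 receptor genes did not move as a group. For Itpr1, control scans read 0.34, 0.42 and 0.45 and AP scans 1.21, 1.11 and 1.15, with no overlap. The difference was 0.78 ± 0.10 (1.72-fold higher, adjusted p = 0.00740). Without scaling it was -0.18 (adjusted p = 0.287), and under normexp 0.35 (adjusted p = 0.327). Itpr3, which with Itpr2 forms most of the apical release channels of acinar cells, read 1.12, 1.25 and 1.23 in control scans against 1.20, 1.22 and 1.29 in AP scans. The groups overlapped, and the difference was 0.048 ± 0.10 (95% interval -0.24 to 0.34, adjusted p = 0.718). Itpr2 read -5.52, -5.46 and -5.35 in control scans against -4.26, -4.39 and -4.23 in AP scans. None of these 6 values was well above background, so no level can be compared. Without a filter on dim probes the limma fit called them higher (1.18, adjusted p = 0.00822), which is no measured rise. The lowest level above background also lay higher in AP: it was -3.78 to -3.67 on control scans and -2.52 to -2.47 on AP scans.

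Around the IP3 receptors, 7 of 9 enzymes and binding partners were tested, 3 of them lower and 1 higher (median -0.27). Itpkc, a kinase that converts IP3, fell by 2.11 (SE 0.094, adjusted p = 0.000999), from 1.32 ± 0.029 to -0.79 ± 0.043 (SD, n = 2 per group). Ahcyl1, which encodes IRBIT and competes with IP3 for its receptor, fell by 1.11 (SE 0.10, adjusted p = 0.00379). Irag1, the IP3 receptor partner in cyclic GMP signalling, fell by 0.64 (SE 0.11, adjusted p = 0.0155). Irag1 kept its direction and call in 14 of 19 other settings, and not without control array 1 or 2 or AP array 1 (adjusted p = 0.0602 to 0.0718), under normexp (0.0086, adjusted p = 0.983) or under the replicate block (adjusted p = 0.0573). Bok, a BCL2 family protein that binds IP3 receptors, rose by 0.34 ± 0.094 (adjusted p = 0.0460). Bok kept its direction and call in 8 of 19 other settings, and not without control array 1 or 2 or AP array 1 or 2 (adjusted p = 0.116 to 0.147), without scaling (-0.61, adjusted p = 0.0101), under quantile normalization (adjusted p = 0.0792), under normexp (0.20, adjusted p = 0.564), in the deposited values (adjusted p = 0.0764), with no filter on dim probes (adjusted p = 0.0828), under the replicate block (adjusted p = 0.127) or under the crossed block (adjusted p = 0.0809). Itpkc and Ahcyl1 kept theirs in all 19. Of 7 genes of the ryanodine and endolysosomal release branch, which hold the channels and Cd38, an enzyme that makes their messengers, 2 were tested and 0 were called by limma: Tpcn1 had 0.45 ± 0.22, adjusted p = 0.161, and Mcoln1 -0.73 ± 0.22, adjusted p = 0.0597.

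Of the 3 entry genes among the members, Stim1 was called and Orai1 and Piezo1 were not. Stim1 read -1.37, -1.11 and -1.20 in control scans against 0.20, 0.0086 and 0.0017 in AP scans, and every AP scan lay above every control scan. The difference was 1.37 ± 0.14 (2.58-fold higher, adjusted p = 0.00458), above that of 92.9% of the genes tested. Without scaling it was 0.41 (adjusted p = 0.0944) and under normexp 0.59 (adjusted p = 0.09998), higher both times but not called. For Orai1, the channel that STIM1 opens, control scans read -1.91, -2.01 and -2.21 and AP scans -1.90, -2.11 and -1.64. The scans overlapped, though the array values did not. The difference was 0.12 ± 0.12 (95% interval -0.21 to 0.46, limma adjusted p = 0.432), with 2 of 3 AP scans well above background. For Piezo1, a channel opened by membrane tension and by pressure in the duct, control scans read 3.58, 3.63 and 3.59 and AP scans 3.52, 3.41 and 3.44. The AP scans were all slightly lower, and the difference was -0.12 ± 0.10 (95% interval -0.40 to 0.16, adjusted p = 0.358). Without scaling Orai1 had -0.83 (adjusted p = 0.00854) and Piezo1 -1.08 (adjusted p = 0.00327), beside a median of -0.99 over all genes.

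Of 12 other entry genes, 8 were on the array, 3 were tested, and these 3 were lower (median -0.82). Of all genes tested 31.9% were lower, and 3 genes are too few to set the list apart from that share. Trpv4, a cation channel that opens after Piezo1 in acinar cells, fell by 1.58 (SE 0.12, adjusted p = 0.00259). Trpv4 kept its direction and call in 17 of 18 other settings, and not under normexp (-0.40, adjusted p = 0.277). Orai3, a relative of Orai1, fell by 0.82 (SE 0.22, adjusted p = 0.0423). Orai3 kept its direction and call in 11 of 18 other settings, and not without control array 1 or AP array 1 or 2 (adjusted p = 0.0751 to 0.148), with the percentile over probes above background on all scans (adjusted p = 0.0828), under normexp (-0.064, adjusted p = 0.862), with no filter on dim probes (adjusted p = 0.0738) or under the replicate block (adjusted p = 0.0831). Saraf, which shuts store-operated entry down, fell by 0.78 (SE 0.092, adjusted p = 0.00602), in all 19 other settings. Trpv4 and Orai3 were well above background on 3 of 3 control scans and 2 of 3 AP scans, so control alone met the filter. Stim2, Trpc1 and Trpm4 were above background on no scan.

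**Figure D2:**
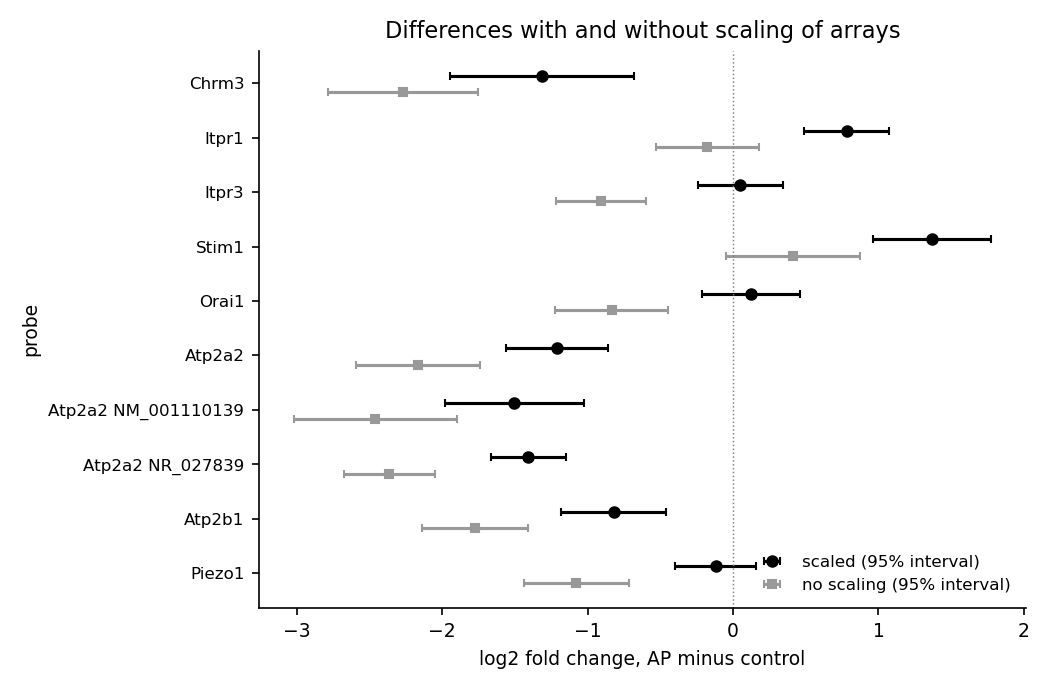
Difference AP minus control on the log2 scale (x axis) for the 10 tested member probes; black points are scaled values and grey squares values without scaling, both with 95% intervals of the limma fit (n = 2 arrays per group). Every grey square lies to the left of its black point by the same step; Atp2a2, Atp2b1 and Chrm3 are below 0 and the Stim1 points are above 0 both ways, its grey interval crossing 0.

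Both pump genes were lower. Atp2a2 encodes SERCA2, which refills the ER, and its 3 probes carried the transcripts NM_001110823, NM_001110139 and NR_027839 (the last a noncoding variant); how far each probe is specific to its transcript is not known here. The brightest probe, NM_001110823, read 2.38, 2.48 and 2.46 in control scans against 1.32, 1.05 and 1.18 in AP scans, a difference of -1.21 ± 0.12 (2.31-fold lower, adjusted p = 0.00435). The NM_001110139 probe went from 1.17, 1.30 and 1.26 to -0.10, -0.42 and -0.51 (-1.50 ± 0.17, 2.84-fold lower, adjusted p = 0.00534). The NR_027839 probe went from 1.26, 1.30 and 1.25 to -0.14, -0.16 and -0.12 (-1.41 ± 0.090, 2.65-fold lower, adjusted p = 0.00184). No probe's groups overlapped, which was also so for the arrays of Orai1 and Piezo1, neither of them called. Atp2a2 kept its direction and its call in all 19 other settings, from -2.17 without scaling to -1.05 under quantile normalization. For Atp2b1, which encodes PMCA1, a plasma membrane pump of many cell types, control scans read 1.49, 1.72 and 1.74 and AP scans 0.78, 0.82 and 0.78. All AP scans were lower, with a difference of -0.82 ± 0.13 (1.77-fold lower, adjusted p = 0.0109). It lost its call when AP array 1 or 2 was left out (adjusted p = 0.0522 and 0.0524).

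The bases before the start of both pump genes are shown because these genes fell together, with Stim1 beside them as a member that rose. Each run is the 250 bases before the RefSeq transcript start, 5′ to 3′, and capitals mark the GC box, GGGCGG on either strand, the letters that the factor Sp1 reads. They are Atp2a2 at chr12:39733269-39733518, Atp2b1 at chr7:35622211-35622460 and Stim1 at chr1:166067964-166068213, all on the + strand of GRCr8.
Atp2a2: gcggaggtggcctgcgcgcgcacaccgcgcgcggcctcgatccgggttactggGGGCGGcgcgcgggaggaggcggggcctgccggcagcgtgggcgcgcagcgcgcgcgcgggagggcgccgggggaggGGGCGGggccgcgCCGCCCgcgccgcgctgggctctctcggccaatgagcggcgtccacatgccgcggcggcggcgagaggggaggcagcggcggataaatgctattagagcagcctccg
Atp2b1: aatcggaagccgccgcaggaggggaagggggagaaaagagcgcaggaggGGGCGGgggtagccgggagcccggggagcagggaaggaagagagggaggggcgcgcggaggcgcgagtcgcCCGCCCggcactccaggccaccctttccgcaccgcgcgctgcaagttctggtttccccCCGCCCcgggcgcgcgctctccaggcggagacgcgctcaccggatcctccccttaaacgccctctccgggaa
Stim1: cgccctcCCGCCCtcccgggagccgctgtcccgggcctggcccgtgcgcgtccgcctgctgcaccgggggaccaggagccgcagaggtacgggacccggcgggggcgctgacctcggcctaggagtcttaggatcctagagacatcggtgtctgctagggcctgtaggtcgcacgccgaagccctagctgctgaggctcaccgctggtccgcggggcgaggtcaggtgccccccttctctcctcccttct
Both pump promoters held 3 GC boxes and Stim1 held 1. Over 33469 promoters of this length 30.5% held at least 1 and 7.41% held 3 or more. GC made up 80.0% of the Atp2a2 window, 72.8% of Atp2b1 and 72.0% of Stim1, against a median of 51.2% over all promoters. These windows were richer in GC than 98.9%, 94.7% and 94.0% of promoters, and the GC box shares were not matched for GC. None of the 3 held TATAAA on either strand (12.9% of all promoters did). Of the other members with a promoter, Itpr3 (not called) had 5, Itpr2 (not tested) 4, Orai1 (not called) 2, Chrm3 (fell) 1 and Itpr1 (rose) 0. A relation between GC boxes and level was not tested. CCAAT, on either strand in 34.0% of all promoters, had 1 match in Atp2a2. A promoter was found for 8 of the 10 genes, not for Cckar and Piezo1, and a match in letters is not a measured binding site.

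Of 11 other pump and exchanger genes, 4 were tested, 2 higher and 2 lower (median -0.18). Atp2a3, which encodes SERCA3, rose by 1.94 ± 0.31 (adjusted p = 0.0123), from -1.49 ± 0.56 to 0.45 ± 0.13 (SD, n = 2 per group). Atp2a3 kept its direction and call in 16 of 19 other settings, and not without AP array 1 or 2 (adjusted p = 0.0514 to 0.0630) or without scaling (0.98, adjusted p = 0.0546). Sln, a small inhibitor of SERCA, rose by 0.53 ± 0.13 (adjusted p = 0.0322). Sln kept its direction and call in 12 of 19 other settings, and not without control array 1 or 2 or AP array 2 (adjusted p = 0.0934 to 0.128), without scaling (-0.42, adjusted p = 0.0374), under normexp (0.27, adjusted p = 0.434), with no filter on dim probes (adjusted p = 0.0596) or under the replicate block (adjusted p = 0.0791). Atp2c1, the Golgi calcium pump, fell by 1.41 (SE 0.24, adjusted p = 0.0141), and Slc8b1, the mitochondrial sodium-calcium exchanger, fell by 0.90 (SE 0.20, adjusted p = 0.0275). Atp2c1 kept its direction and call in 16 of 19 other settings, and not without control array 1 or 2 (adjusted p = 0.0668 to 0.0813) or under normexp (-0.27, adjusted p = 0.444). Slc8b1 kept its direction and call in 14 of 19 other settings, and not without control array 1 or 2 or AP array 1 (adjusted p = 0.0666 to 0.124), with no filter on dim probes (adjusted p = 0.0510) or under the crossed block (adjusted p = 0.0504). Atp2b2, Atp2b3 and Atp2b4, which encode the other PMCA pumps, were above background on no scan.

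Downstream, 4 of 7 mitochondrial calcium genes were tested and 0 were called by limma (median -0.02); Mcu, the uniporter, had 0.29 ± 0.33, adjusted p = 0.507. Of 9 calcium-binding proteins of the secretory pathway, 6 were tested, 3 of them lower and 0 higher (median -0.25). Calu, calumenin, fell by 2.01 (SE 0.10, adjusted p = 0.00108), while Calr, a main calcium store protein of the ER, had 0.085 ± 0.13, adjusted p = 0.621. Rcn2 and Rcn3, of the same protein family as Calu, fell by 1.49 (SE 0.12, adjusted p = 0.00291) and by 0.58 (SE 0.11, adjusted p = 0.0177). Rcn3 kept its direction and call in 14 of 19 other settings, and not without control array 1 or 2 or AP array 2 (adjusted p = 0.0691 to 0.0796), under normexp (-0.33, adjusted p = 0.350) or under the replicate block (adjusted p = 0.0536). Of 18 calmodulin, calcineurin and NFAT genes, 12 were tested, 5 of them lower and 2 higher (median -0.40). Nfatc4, a transcription factor that calcineurin activates, fell by 2.41 (SE 0.10, adjusted p = 0.000922), and Rcan1, a calcineurin inhibitor that NFAT itself induces, fell by 2.19 (SE 0.10, adjusted p = 0.00108). Nfatc3, a relative, rose by 1.12 ± 0.12 (adjusted p = 0.00509). Nfatc3 kept its direction and call in 17 of 19 other settings, and not without scaling (0.16, adjusted p = 0.306) or under normexp (0.52, adjusted p = 0.154). Camk4, a calmodulin kinase of T cells and neurons, was at background on all 3 control scans, entered the test through the AP scans alone and was called higher. Against the lowest level above background it was at least 9.35-fold higher in AP. Calu, Rcn2, Nfatc4 and Rcan1 kept direction and call in all 19 other settings.

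**Figure D3:**
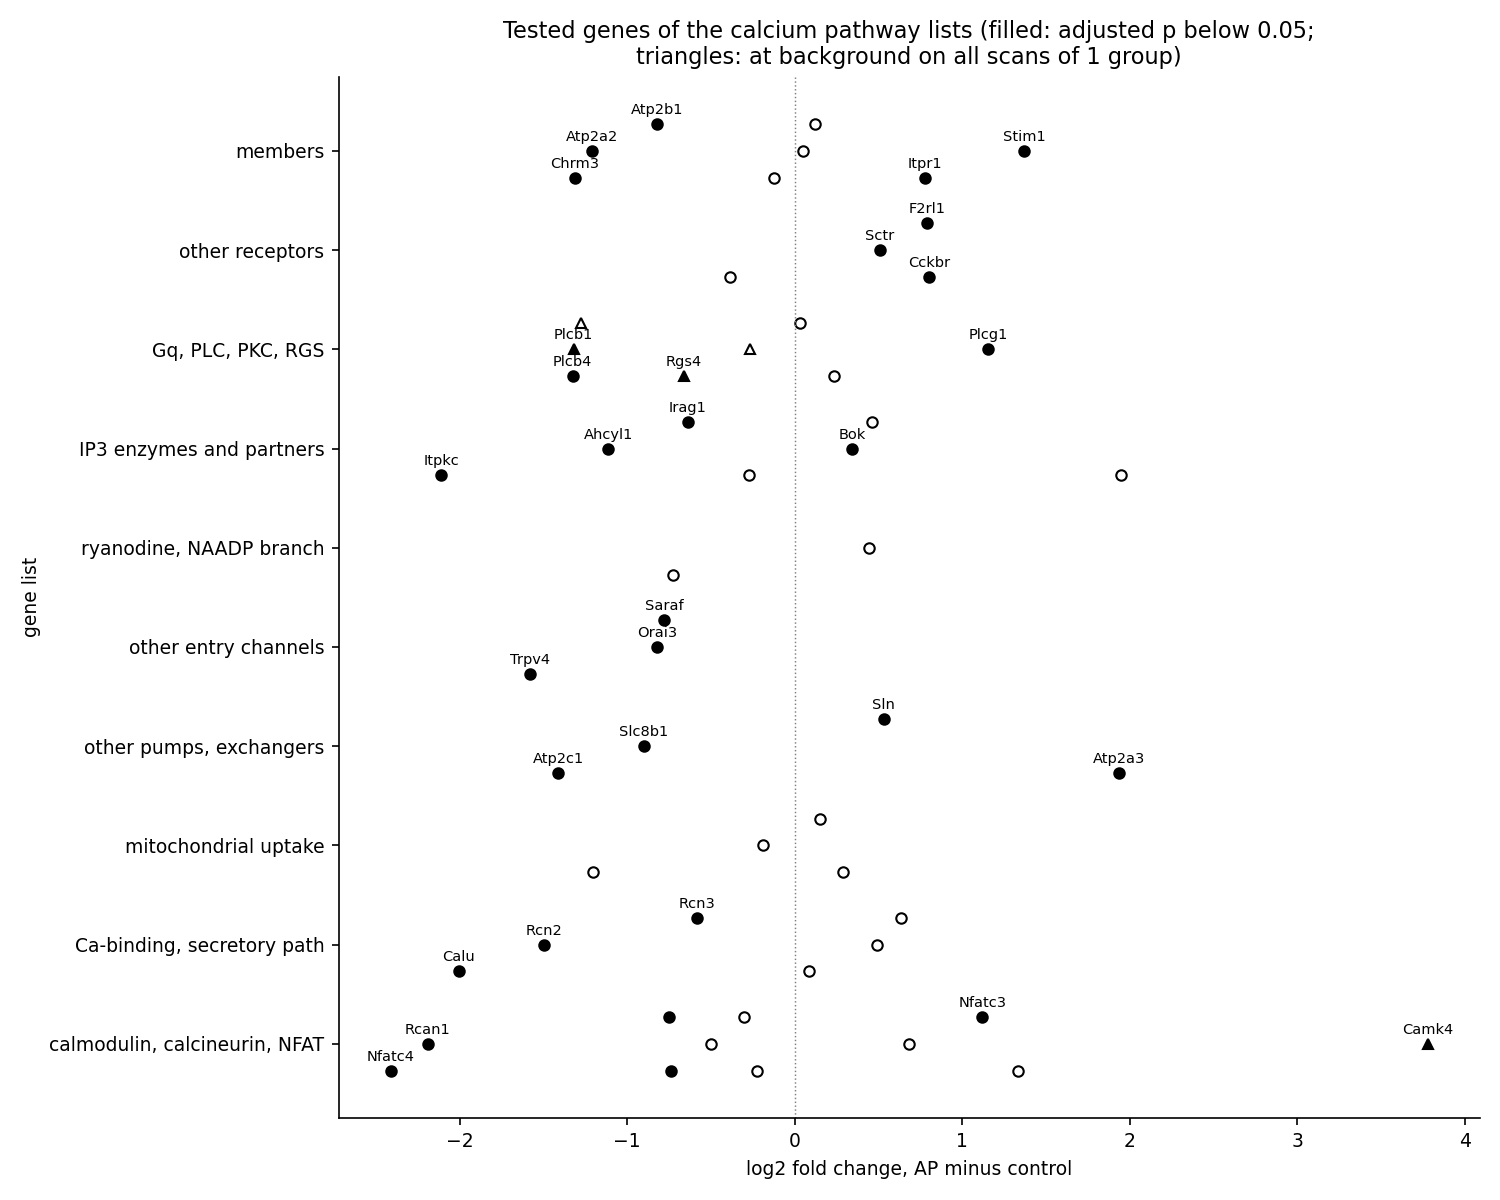
Difference AP minus control on the log2 scale (x axis) for the tested genes of the 10 members and the 9 other calcium lists (rows); filled points were called at an adjusted p below 0.05, and those named in the text carry their symbol; triangles mark genes at background on all scans of 1 group, whose position is a fitted value and no measured difference. Of the 50 tested genes of the other lists, 19 (38.0%, with 1 gene not drawn) were called lower and 9 (18.0%) higher. The shares over all genes tested were 31.9% and 24.1%. Plcb1 and Rgs4 among the lower and Camk4 among the higher entered the test through 1 group alone.

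Counted together, 2 of the 8 tested members were higher (Stim1 and Itpr1) and 3 were lower (Chrm3, Atp2a2 and Atp2b1). Of all genes tested, 24.1% were higher and 31.9% lower, so the members' 25.0% and 37.5% lay near the background. Their median difference was -0.04, against -0.03 over all genes. The 8 had passed a filter on dim probes, which Chrm3 met through its control scans, and Cckar and Itpr2 are not in these counts. Of the 96 other pathway genes, 50 were tested, of which 9 (18.0%) were higher and 19 (38.0%) lower (median -0.29, or -0.25 with 5 genes at background in 1 group set to their bounds). Plcb1 and Rgs4 among the lower and Camk4 among the higher entered the test through 1 group alone, and the counts were not corrected for that. Without scaling 0 members were called higher and 6 lower, beside 5.30% and 62.5% of all genes.

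A ratio of 2 members on the same array does not depend on the scaling between arrays, but it does depend on the background correction, so each change is also given under normexp. The log2 ratio of Stim1 to Atp2a2 was -3.75 and -3.63 in the control arrays against -1.11 in each AP array, a rise of 2.58 (1.81 under normexp). For Stim1 over its partner Orai1 the control arrays had 0.53 and 0.96 and the AP arrays 2.10 and 1.88, a rise of 1.25 (0.34 under normexp). For Itpr1 over Itpr3 the control arrays had -0.78 and -0.80 and the AP arrays 0.011 and -0.13, a rise of 0.73 (0.51 under normexp). For Atp2a2 over Atp2b1 the control arrays had 0.89 and 0.74 and the AP arrays 0.54 and 0.31, a change of -0.39 (-0.53 under normexp). None of these 4 ratios overlapped between the groups either way, but they were picked from 28 pairs with their values known. Most of the 28 pairs likewise did not overlap, so the lack of overlap does not set these 4 apart. Chrm3 over Itpr3, also drawn, changed by -1.36 without overlap, but under normexp by 0.024 with overlap. An exact two-sided permutation test of 2 arrays against 2 cannot give a p below 0.333, so no test is given. The change in a ratio can be read, not its level, since different probes are not on 1 scale.

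**Figure D4:**
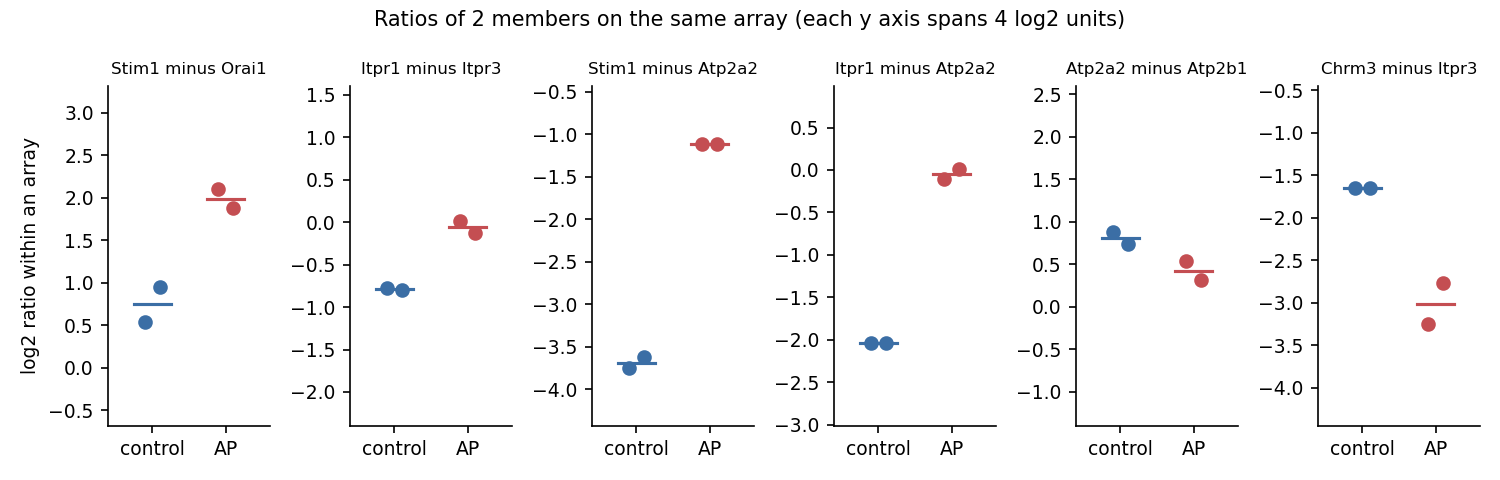
Log2 ratio of 2 member genes on the same array (y axis, each spanning 4 log2 units) in control arrays (blue) and AP arrays (red), with the group mean as a line; n = 2 arrays per group. The ratio of Stim1 to Atp2a2 goes from a mean of -3.69 to -1.11. Normexp values are not drawn, and under normexp the groups of Chrm3 over Itpr3 overlapped (change 0.024).

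Markers of other cells moved on the same arrays, and their part in the members' differences was not tested. In bulk tissue fewer cells of a type and less RNA per cell cannot be told apart. A summed level is weighted to its brightest probes. Each count below stands beside 24.1% higher and 31.9% lower among all genes tested. Of the tested markers, 3 lymphocyte, 3 myeloid, 2 neural, 1 islet and 1 erythroid gene were at background on all scans of 1 group. Acinar markers were present in both groups: 7 of 9 tested were higher in AP, and their summed linear level relative to the 75th percentile was 40.7 to 41.1 in control and 47.6 to 48.8 in AP arrays, with Ptf1a and Rbpjl at background throughout. Without scaling 1 acinar marker was higher and 2 were lower, beside 5.30% and 62.5% of all genes, with a median difference of -0.058. The acinar sum was lower than the adipocyte and erythroid sums below in control arrays, and higher than them in AP arrays. Different probes are not on 1 scale. Lymphocytes use STIM1, ORAI1, SERCA3 and CAMK4, and 7 of 7 tested lymphocyte markers were higher, with sums of 2.05 to 2.52 in control and 28.2 to 29.3 in AP arrays (Ccr7 at background). Of the smooth muscle markers 2 of 4 were higher (sums 12.0 to 13.2 and 16.8 to 19.9, with Myocd and Rgs5 at background). Without scaling 0 of these were higher and 1 was lower, beside the unscaled shares given above. Duct markers had 1 of 4 higher and 1 lower (13.3 to 13.8 and 26.4 to 32.3; Cftr at background), but without Slc4a4 the sums were 9.14 to 9.68 in control and 7.08 to 7.53 in AP arrays. Of the neural markers, 3 of 4 were lower and 1 higher (25.4 to 25.8 and 2.72 to 3.02, Elavl4 and Sox10 at background). With S100b left out, the neural sums were 2.43 to 2.46 in control and 1.65 to 1.93 in AP arrays. Both tested endothelial markers were lower (2.48 to 2.74 and 1.54 to 1.57, Cdh5 at background). Erythroid markers, from cells that carry Piezo1, had 4 of 5 lower and 1 higher (631 to 728 and 30.0 to 31.0). With Hbb left out, the erythroid sums were 11.5 to 12.1 in control and 3.46 to 3.77 in AP arrays. Adipocyte markers had 5 of 7 lower (442 to 445 and 16.0 to 16.1). Islet markers had 2 of 4 lower (8.50 to 10.2 and 3.73 to 4.51; Gcg, Chga and Pcsk1 at background), and myeloid markers 3 of 8 lower and 2 higher (29.8 to 31.3 and 14.7 to 16.9, leaving out Cd68, which had no value on AP array 2). Without S100a8 the myeloid sums were 14.5 to 14.6 in control and 14.6 to 16.8 in AP arrays.

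**Figure D5:**
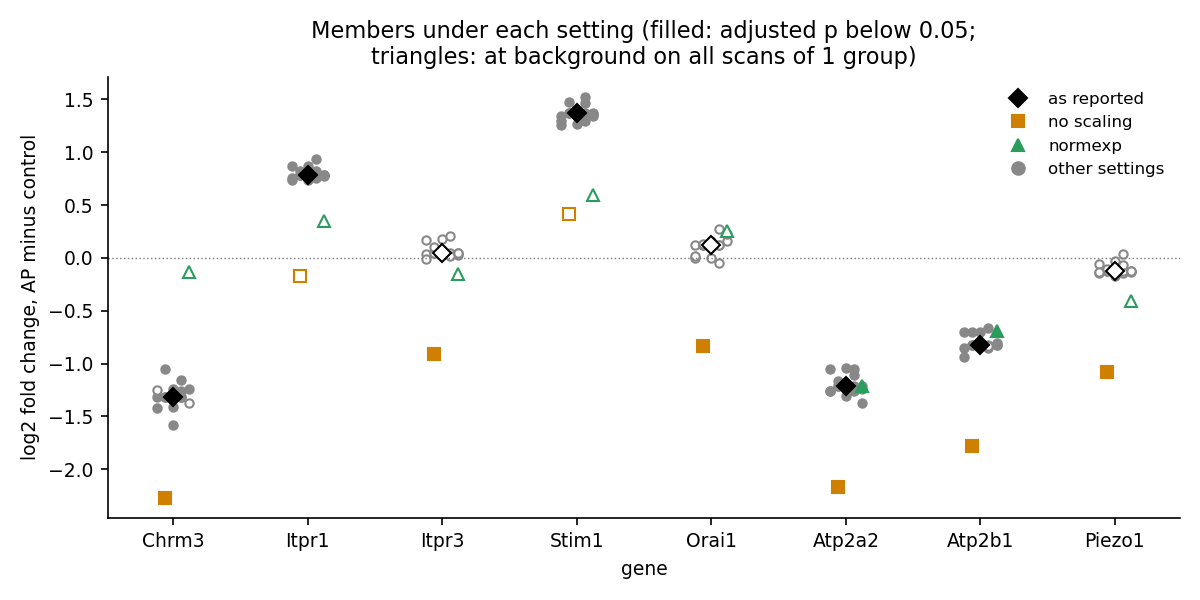
Difference AP minus control on the log2 scale (y axis) of each tested member (x axis) under every setting; the black diamond is the reported value, the orange square no scaling, the green triangle normexp background correction and grey circles the other settings, filled where the adjusted p was below 0.05. Atp2a2 and Atp2b1 are filled under both no scaling and normexp, while Stim1 and Itpr1 are filled under neither. The words on triangles in the drawn title do not apply here: 0 tested members were at background on all scans of 1 group.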

How the data were processed

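Pancreas RNA was measured on 1-colour Agilent arrays, 3 deposited scans per group. Per the labels' protocols, RNA was extracted with TRIzol, depleted of ribosomal RNA and labelled by random priming. Agilent Feature Extraction 11.0.1.1 read the images, per the submitters' processing notes. Per the file headers, each spot's intensity had its background subtracted and spatial trend removed, and was not scaled to other arrays; the design was annotated on rn4. The deposited normalized table is in log2, from its values; how it was made was not stated.

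Spots with an outlier mark were left out, a probe's spots were averaged in log2, and each scan's 75th percentile over noncontrol probes was subtracted. Scans of an array (spot deviations with r above 0.9, over 368 probes) were averaged, so 6 scans gave 4 arrays. Probes bright on 3 or more of 6 scans entered 1 limma fit (limma 3.58.1, R 4.3.3; 2 residual degrees of freedom, two-sided, Benjamini-Hochberg), and 64 of the 13213 lacked a value on some array. A gene's brightest tested probe stands for it. A bound sets the brighter group's mean against the lowest level well above background on each scan, or the dim probe's own where higher. The fit was tested on simulated data.

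Symbols, from a RefSeq table of GRCr8, matched 14294 probes; promoters are RefSeq's, GRCr8. Control arrays lay in slots 1 and 2 and AP arrays in slots 3 and 4, so slot and group cannot be told apart. Same-numbered arrays deviated in opposite directions (r = -0.21 over 13149 probes), which gave no sign that the numbers pair them. With 2 arrays per group this is a single correlation, so it cannot exclude a pairing. The members and gene lists were chosen with earlier results of these data known. All members are named and, of each pathway list, at most 3 genes called in each direction; the uncalled genes were picked after their values were seen. For 1 gene counted in these lists, values are not reported here. Other settings numbered 19. Python 3.11.15 and pandas 2.3.3 prepared the tables.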

Additional observations from a re-analysis of the deposited data

How the results depend on the processing

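Atp2a2 kept its call in all 19 other settings, and the scale and the background correction moved most else. Without scaling Itpr1 was -0.18, Itpr3 -0.91, Orai1 -0.83, Cckbr -0.16, F2rl1 -0.16, Sctr -0.45, Bok -0.61 and Sln -0.42, all turned below 0. Stim1 was 0.41 and not called, and Piezo1 was -1.08 and called. Then 0 members were higher and 6 lower, and of the other pathway genes 1 higher and 34 lower. Beside them stood 5.30% and 62.5% of all genes, and the members' median was -0.99. Over all probes 768 were higher and 7795 lower (8.97% of calls higher), against 3556 and 3726 (48.8%) as reported. Under normexp Chrm3 was -0.13, Itpr1 0.35 and Stim1 0.59, none called. Itpr3 (-0.15), Plcb1 (0.27), Rgs4 (0.24), Gna14 (0.32) and Irag1 (0.0086) turned their sign. Then 0 members were higher and 2 lower, of the other pathway genes 4 higher and 9 lower, beside 6.44% and 16.1% of all genes, the members' median was -0.14, and over all probes 932 were higher and 1720 lower (35.1%). Orai1, near 0, was -0.0012 under quantile normalization, -0.0052 in the deposited values and -0.045 with the first scan session. With the percentile taken over probes above background on all scans, Piezo1 was 0.035 and the members' median 0.12. With no filter on dim probes the median was 0.085 and 6800 probes were higher and 3363 lower (66.9%). Leaving out an array each, Chrm3 ranged from -1.58 to -1.05, Atp2b1 from -0.94 to -0.70 and Itpr3 from -0.011 to 0.11; the other pathway genes had 4 to 7 higher (4 without control array 2) and 12 to 17 lower (12 without control array 1), and over all probes 2120 to 2738 were higher. A lone array is then assumed to vary like the other group. With a replicate block the members kept 2 higher and 3 lower, and the other pathway genes had 5 and 16, beside 17.8% and 25.3% of all genes. With crossed replicate numbers as a block, added after the data were seen, the members had 2 and 3 and the others 9 and 21, beside 25.0% and 31.1%. The causes of these changes were not tested. Dim signal limits Cckar, Itpr2, Orai1 and Chrm3.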
